A study of Mus musculus with 16 samples.

Results

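The 35 genes described here belong to glycolysis and the transcriptional response to low oxygen. They were taken by gene symbol from the deposited read count tables of mouse jejunal organoids, and all 35 were found among the 19964 genes listed for both time points. They comprise 13 enzymes of glycolysis, 5 transporters and regulators of the pathway, and 17 other hypoxia-induced genes. The organoids are epithelial cultures from mouse jejunum (C57BL/6 background, genotype Villin-CreERT2; Hnf4aflox/flox), sequenced as RNA in 4 groups of 4 libraries. The controls received the vehicle DMSO. The other organoids received 4-hydroxytamoxifen (4OHT) at 0.5 µM for 24 h, before being split. Each treatment was sampled at day 2 and at day 4. All 4 groups carry the floxed Hnf4a alleles and the Cre recombinase, which the villin promoter drives in intestinal epithelium and 4OHT activates. The control therefore accounts for the genotype but not for exposure to 4OHT itself. The protocol text names harvest on day 4 for every sample, so the day 2 label of 8 libraries rests on titles and time point labels. The labels do not say whether replicates came from separate mice, organoid lines or wells. The p-values below therefore rest on library-to-library spread alone, and that spread may be technical.

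Glycolysis converts glucose to pyruvate in the cytosol, and lactate dehydrogenase can reduce that pyruvate to lactate, which leaves the cell through monocarboxylate transporters. When oxygen is plentiful, prolyl hydroxylases of the Egln family mark the alpha subunits of hypoxia-inducible factors (HIF) for destruction by the Vhl ubiquitin ligase. When oxygen falls, the stabilised factors bind short sites with the core ACGTG or GCGTG and raise transcription of glucose transporters, most glycolytic enzymes and genes for mitophagy, angiogenesis, pH control and collagen hydroxylation. HNF4A, the nuclear receptor encoded by the floxed gene, is a transcription factor of enterocytes. In small intestine, enterocytes also express liver-type isozymes that handle absorbed sugar.

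The libraries held 63.8 to 93.3 M counts. Hnf4a levels did not overlap between treatments on either day, at 1020 ± 31.7 CPM (counts scaled to a common library size with TMM factors, ± SD, n = 4) in DMSO and 510.8 ± 21.2 CPM in 4OHT at day 2, and at 967.1 ± 11.9 and 469.5 ± 15.3 CPM at day 4. It fell by 0.99 and by 1.04 on the log2 scale (edgeR adjusted p = 8.25e-08 and 1.14e-06), and the per-gene counts include exons outside the floxed part. On the first principal component, 4OHT day 4 replicate 4 lay at 1.5 and the other 3 libraries of its group at 7.8 to 12. Markers of other cell types moved between groups. Summed levels of 8 goblet markers were 4880 to 5730 CPM in DMSO and 7440 to 9530 CPM in 4OHT at day 2, and 3960 to 5200 against 7340 to 9270 CPM at day 4. Summed levels of 10 enterocyte markers were 8930 to 12100 and 6380 to 8820 CPM at day 2, and 13900 to 14900 and 12200 to 17200 CPM at day 4. Summed levels of 9 squamous and regenerative markers were 693 to 856 and 2170 to 2730 CPM at day 2, and 68.6 to 162 and 340 to 899 CPM at day 4. Summed levels of 8 stem cell markers were 1870 to 2130 and 1320 to 1480 CPM at day 2, and 4310 to 4650 and 3160 to 3610 CPM at day 4. Of these lists, none had a gene at 0 counts in any library, except 1 squamous or regenerative gene in DMSO at day 4. Stromal markers summed to at most 11.3 CPM and immune and endothelial markers to at most 9.59 CPM in any library. The part of changed cell mixtures in the results below was not tested, and in bulk RNA fewer cells of a type and less RNA per cell cannot be told apart.

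Promoter sequences show where the core letters of a HIF site lie in the members that moved most. RefSeq promoters (build GRCm38.p6) were found for 32 of the 35 genes, 49 promoters in all, and the 250 bases before each start site were searched on both strands for ACGTG and for GCGTG. Several promoters of a gene can overlap, as 3 of the Ak4 promoters do. ACGTG was present in 23 of the 49 member promoters (46.9%) and in 16.6% of all 32851 promoters. GCGTG was present in 53.1% and 28.2%, and either motif in 79.6% and 38.6%. The member promoters were richer in G and C, with a median of 62.8% against 52.4%. Among promoters of 56.8% to 69.2% GC, either motif was present in 22 of 25 member promoters and in 58.0% of 8734 promoters. By role, ACGTG was present in 35% of 20 promoters of glycolytic enzymes, 57.1% of 7 promoters of transporters and regulators and 54.5% of 22 promoters of other hypoxia-induced genes. A match is a description of letters and not evidence of a bound factor.

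The following promoters are shown for the 4 members with the largest rises from day 2 to day 4 in DMSO (Bnip3, Ak4, P4ha2 and Adm), and for Hk1, Hk2 and Slc2a1, which differed between treatments at day 2 and were not called by day. The choice was made after their values were seen. Each runs 5′ to 3′ on the gene's strand and ends at the base before the start site. Capitals mark ACGTG or GCGTG, or their reverse complements CACGT and CACGC, and CACGTG counts on both strands. Coordinates are in GRCm38.p6, 1-based.
Bnip3, chr7:138909507-138909756, minus strand: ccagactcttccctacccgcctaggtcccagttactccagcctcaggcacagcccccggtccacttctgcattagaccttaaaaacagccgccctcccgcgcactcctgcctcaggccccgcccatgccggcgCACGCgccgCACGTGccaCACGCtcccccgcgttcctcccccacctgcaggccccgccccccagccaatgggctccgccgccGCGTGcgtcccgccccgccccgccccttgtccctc
Ak4, first of 3 overlapping promoters, chr4:101419039-101419288, plus strand: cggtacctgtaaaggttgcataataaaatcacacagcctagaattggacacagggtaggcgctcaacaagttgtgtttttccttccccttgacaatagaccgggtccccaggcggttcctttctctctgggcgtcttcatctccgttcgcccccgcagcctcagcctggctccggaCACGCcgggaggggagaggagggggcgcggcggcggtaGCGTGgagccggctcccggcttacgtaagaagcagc
P4ha2, chr11:54100674-54100923, plus strand: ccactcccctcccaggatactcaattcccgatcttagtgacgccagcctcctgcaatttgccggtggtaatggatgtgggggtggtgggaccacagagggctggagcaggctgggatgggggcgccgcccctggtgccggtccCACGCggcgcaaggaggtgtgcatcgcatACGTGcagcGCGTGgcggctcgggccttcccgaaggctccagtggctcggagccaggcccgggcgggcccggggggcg
Adm, chr7:110627407-110627656, plus strand: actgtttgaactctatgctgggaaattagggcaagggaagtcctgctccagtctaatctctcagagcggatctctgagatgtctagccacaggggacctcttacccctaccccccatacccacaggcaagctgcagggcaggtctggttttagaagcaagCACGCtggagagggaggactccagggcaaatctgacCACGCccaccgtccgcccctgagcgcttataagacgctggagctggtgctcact
Hk1, upstream promoter, chr10:62379909-62380158, minus strand: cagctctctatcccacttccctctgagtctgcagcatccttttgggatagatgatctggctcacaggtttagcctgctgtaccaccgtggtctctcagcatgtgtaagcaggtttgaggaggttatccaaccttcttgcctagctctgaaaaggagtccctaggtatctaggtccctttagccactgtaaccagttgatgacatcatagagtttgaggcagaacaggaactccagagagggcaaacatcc
Hk1, downstream promoter, chr10:62340422-62340671, minus strand: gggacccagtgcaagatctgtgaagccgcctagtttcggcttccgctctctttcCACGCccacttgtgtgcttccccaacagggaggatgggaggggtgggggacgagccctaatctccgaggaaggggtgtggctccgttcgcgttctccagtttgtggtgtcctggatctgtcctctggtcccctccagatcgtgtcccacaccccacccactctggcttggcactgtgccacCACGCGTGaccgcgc
Hk2, chr6:82774455-82774704, minus strand: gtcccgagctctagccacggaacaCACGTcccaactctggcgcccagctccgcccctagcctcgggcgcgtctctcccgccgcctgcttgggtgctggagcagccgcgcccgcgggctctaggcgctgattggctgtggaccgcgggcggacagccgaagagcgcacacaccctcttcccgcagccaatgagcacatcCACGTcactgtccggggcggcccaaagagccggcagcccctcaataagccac
Slc2a1, chr4:119108495-119108744, plus strand: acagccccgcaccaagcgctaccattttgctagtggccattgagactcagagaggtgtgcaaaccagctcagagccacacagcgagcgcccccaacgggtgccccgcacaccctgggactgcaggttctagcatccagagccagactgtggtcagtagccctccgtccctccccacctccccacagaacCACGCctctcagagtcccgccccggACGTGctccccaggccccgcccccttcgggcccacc
Counted back from the start site, the ACGTG cores of Bnip3 lie at -108 and -107, a palindrome read on both strands, and its GCGTG cores at -117, -99 and -35. P4ha2 has ACGTG at -78 and GCGTG at -107 and -69. The Ak4 and Adm windows shown hold no ACGTG and have GCGTG at -74 and -36 (Ak4) and at -90 and -54 (Adm). A further Ak4 promoter, which starts downstream and is not printed, has ACGTG at -214 and -213. Hk2 has ACGTG at -226 and -52, and Slc2a1 has ACGTG at -36 and GCGTG at -61. The Hk1 windows hold no ACGTG, and only the downstream window holds GCGTG, at -196, -15 and -12.

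The comparison of 4OHT with DMSO at day 2 addressed early effects of Hnf4a deletion. Members of glycolysis and the hypoxia response were more often higher than lower in 4OHT. Hk1, a hexokinase that traps glucose in the cell by phosphorylation, rose most, and Hk2 and the glucose transporter gene Slc2a1 rose by smaller amounts. Pfkfb4 and Car9 fell. Of the 35 members, 14 rose and 2 fell, where 16.9% of the 15897 genes tested rose and 14.3% fell (edgeR quasi-likelihood test, Benjamini-Hochberg adjusted p below 0.05 over all genes). The median log2 fold change was 0.19 over the members and 0.00 over all genes tested. By role, 7 of 13 glycolytic enzymes rose and 0 fell (median 0.19), 1 of 5 transporters and regulators rose and 1 fell (median 0.22), and 6 of 17 other hypoxia-induced genes rose and 1 fell (median 0.18).

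**Figure D1:**
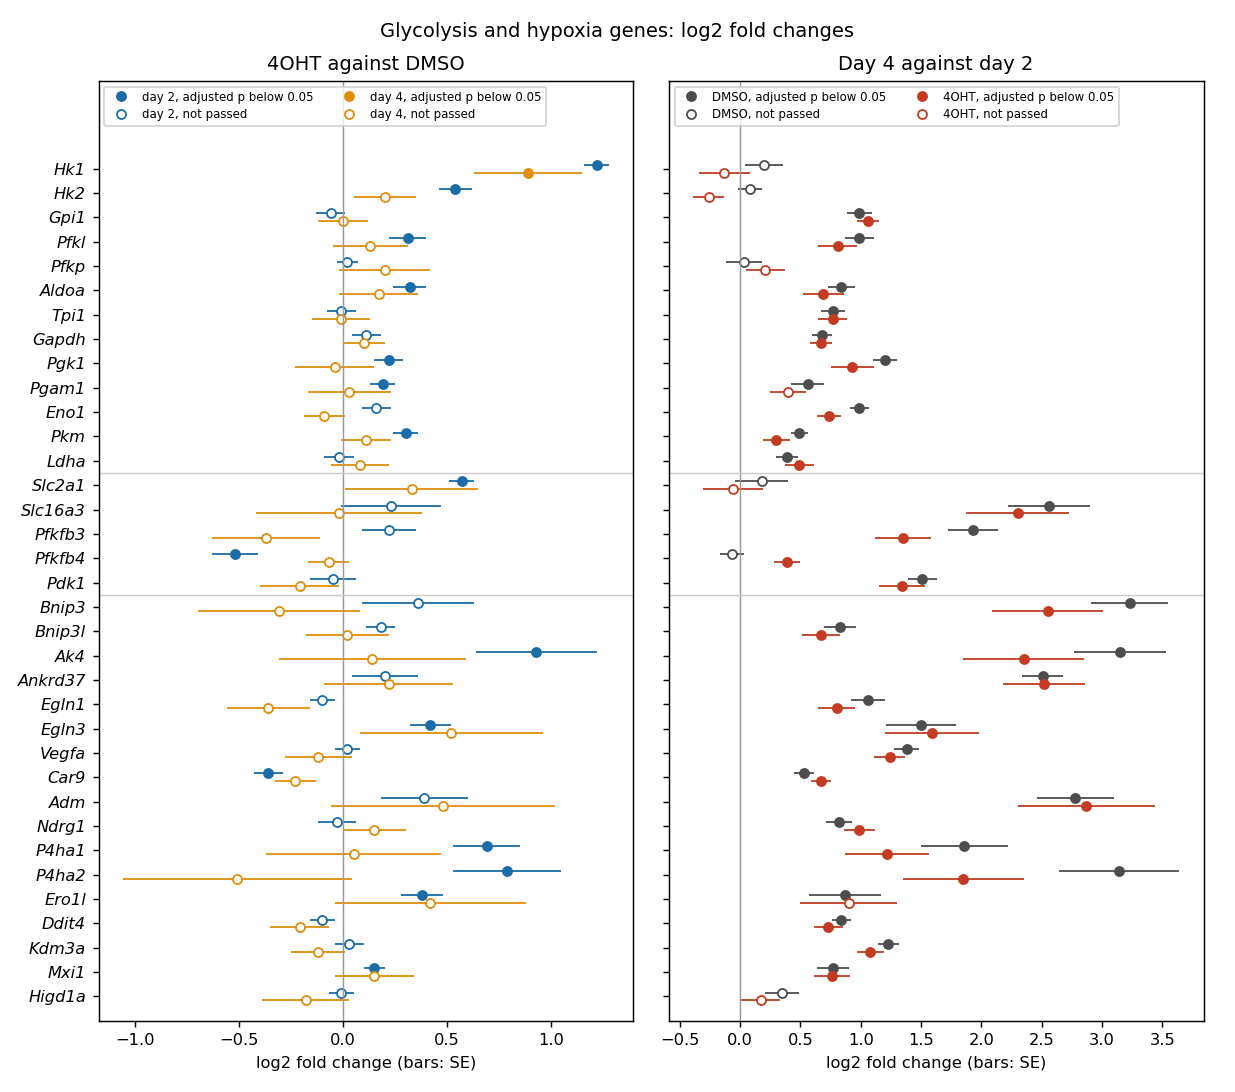
Log2 fold changes of the 35 members (points) with standard errors (bars), for 4OHT against DMSO at each day (left) and day 4 against day 2 in each treatment (right), fits without the replicate block. Filled points have an adjusted p below 0.05. At day 2, 14 members are filled above 0 and 2 below, at day 4 Hk1 alone is filled, and on the right 29 (DMSO) and 28 (4OHT) members are filled, all above 0.

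Hexokinases begin glycolysis. Hk1 (ENSMUSG00000037012, GRCm38 chromosome 10, 62268855 to 62379908, minus strand) was at 40.3, 44.4, 41.9 and 46.05 CPM in DMSO replicates 1 to 4 at day 2, and at 95.6, 95.4, 104.1 and 105.4 CPM in 4OHT. The groups did not overlap, and each 4OHT library exceeded every DMSO library by a wide margin (log2 fold change 1.22 ± 0.06 SE, edgeR adjusted p = 4.93e-08). Hk2, an inducible hexokinase and HIF target, was at 66.3, 81.8, 78.4 and 86.8 CPM in DMSO and at 107.0, 106.4, 121.2 and 117.6 CPM in 4OHT. These groups did not overlap either (log2 0.54 ± 0.08, edgeR adjusted p = 0.000364). Hk1 shares 157 bases of exon with the antisense gene Hk1os, so its counts are uncertain to the extent that strand was not used in counting.

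Further down the pathway, Aldoa, an aldolase that splits fructose bisphosphate, rose from 832.7 ± 61.0 to 1034 ± 118 CPM (log2 0.32 ± 0.08, edgeR adjusted p = 0.00735). Pkm, the pyruvate kinase of the last step, rose from 1505 ± 48.3 to 1838 ± 138 CPM (log2 0.30 ± 0.06, edgeR adjusted p = 0.00193). Neither gene overlapped between its groups. Pfkl, a phosphofructokinase (log2 0.31), Pgk1, a phosphoglycerate kinase (log2 0.22), and Pgam1, a phosphoglycerate mutase (log2 0.19), also passed the test, at edgeR adjusted p of 0.0255, 0.0359 and 0.0432. The remaining 6 enzymes did not pass. They were Gpi1 (log2 -0.06 ± 0.07), Pfkp (0.02 ± 0.05), Tpi1 (-0.01 ± 0.07), Gapdh (0.11 ± 0.07), Eno1 (0.16 ± 0.07) and Ldha (-0.02 ± 0.07). These 6 enzymes thus lay between -0.06 and 0.16 on the log2 scale, below both hexokinases.

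Among transporters and regulators, Slc2a1 was at 74.3, 76.3, 73.9 and 76.7 CPM in DMSO at day 2 and at 104.4, 105.3, 109.1 and 125.3 CPM in 4OHT. The groups did not overlap (log2 0.57 ± 0.06, edgeR adjusted p = 1.57e-05). Pfkfb4 encodes an enzyme that sets the level of fructose 2,6-bisphosphate, the activator of phosphofructokinase. It was at 76.9, 66.2, 71.0 and 55.03 CPM in DMSO and at 52.9, 51.3, 43.8 and 38.2 CPM in 4OHT, again without overlap (log2 -0.52 ± 0.11, edgeR adjusted p = 0.00405). The related enzyme gene Pfkfb3 (log2 0.22 ± 0.13), the lactate exporter gene Slc16a3 (0.23 ± 0.24) and Pdk1, whose kinase restrains pyruvate dehydrogenase (-0.05 ± 0.11), did not pass.

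The other hypoxia-induced genes did not move as a block at day 2. P4ha1, which encodes a catalytic subunit of collagen prolyl 4-hydroxylase, was at 9.76, 10.8, 12.4 and 9.25 CPM in DMSO and at 15.8, 13.5, 14.5 and 23.6 CPM in 4OHT. The groups did not overlap, and replicate 4 was the highest 4OHT library (log2 0.69 ± 0.16, edgeR adjusted p = 0.00628). The related gene P4ha2 was at 1.03, 1.06, 1.15 and 1.349 CPM in DMSO and at 1.505, 1.33, 1.67 and 3.29 CPM in 4OHT. The P4ha2 groups overlapped, and replicate 4 was again the highest (log2 0.79 ± 0.26, edgeR adjusted p = 0.037).

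Ak4, a mitochondrial adenylate kinase, was at 6.98, 6.45, 8.51 and 6.55 CPM in DMSO and at 12.9, 8.65, 8.01 and 24.2 CPM in 4OHT. Here the groups overlapped and replicate 4 was the highest library (log2 0.93 ± 0.29, edgeR adjusted p = 0.029). Egln3, a prolyl hydroxylase that is itself a HIF target, was at 41.1, 40.8, 47.6 and 41.2 CPM in DMSO and at 55.9, 52.4, 49.5 and 70.1 CPM in 4OHT. Ero1l, an oxidase of disulfide formation in the endoplasmic reticulum, was at 122.5, 132.4, 157.9 and 151.7 CPM in DMSO and at 173.9, 169.0, 172.6 and 215.3 CPM in 4OHT. Neither of these genes overlapped between groups (Egln3 log2 0.42 ± 0.10, Ero1l log2 0.38 ± 0.10, edgeR adjusted p = 0.00613 and 0.0103). Mxi1, a repressor of Myc targets, passed at log2 0.15 ± 0.05 (edgeR adjusted p = 0.0458).

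Car9, the membrane carbonic anhydrase widely used as a hypoxia marker, went the other way. It was at 168.7, 153.6, 156.4 and 136.2 CPM in DMSO and at 126.5, 124.4, 106.6 and 117.8 CPM in 4OHT, and the groups did not overlap (log2 -0.36 ± 0.07, edgeR adjusted p = 0.00172). The 10 remaining hypoxia-induced genes did not pass. Among them, the mitophagy receptor genes Bnip3 and Bnip3l measured log2 0.36 ± 0.27 and 0.18 ± 0.07, the angiogenic factor gene Vegfa 0.02 ± 0.06, the main oxygen sensor gene Egln1 -0.10 ± 0.06 and the peptide hormone gene Adm 0.39 ± 0.21. Ndrg1, Ddit4, Kdm3a, Higd1a and Ankrd37 measured log2 -0.03 ± 0.09, -0.10 ± 0.06, 0.03 ± 0.07, -0.01 ± 0.06 and 0.20 ± 0.16.

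Groups did not overlap for 11 of the 35 members at day 2, all of them among the 16 calls, where 31.8% of 15892 genes did not (genes tested and listed in both tables). Of the 16 calls, 5 (Hk1, Hk2, Pkm, Pfkfb4 and Car9) were kept in all 15 alternative fits at the same threshold. Another 4 (Slc2a1, Aldoa, Egln3 and Ero1l) were lost only when all 16 libraries shared 1 estimate of the spread, at edgeR adjusted p of 0.129, 0.166, 0.448 and 0.519; the members vary more between libraries at day 4. P4ha1 was lost there (0.218) and when replicate 1 of DMSO was dropped (edgeR adjusted p = 0.0596). The calls of Ak4 (without DMSO replicates 1, 2 or 4, or 4OHT replicates 1 or 4, edgeR adjusted p up to 0.163), P4ha2 (without any DMSO replicate, or 4OHT replicates 3 or 4, up to 0.138), Pfkl (without any DMSO replicate, or 4OHT replicates 1 or 4, up to 0.0918) and Pgk1 (without DMSO replicates 2, 3 or 4, or 4OHT replicates 1 or 4, up to 0.0979) ended when single libraries were left out. So did those of Pgam1 (up to 0.14) and Mxi1 (up to 0.162), without DMSO replicates 1, 2 or 4 or 4OHT replicates 1, 3 or 4. The count of rises was 8 without DMSO day 2 replicate 2, DMSO day 2 replicate 4 or 4OHT day 2 replicate 4, and 9 without 4OHT day 2 replicate 1. Without 4OHT day 2 replicate 4, log2 fold changes became 0.47 for Ak4 (from 0.93), 0.38 for P4ha2 (from 0.79), 0.19 for Pfkl (from 0.31), 0.12 for Pgk1 (from 0.22) and 0.11 for Pgam1 (from 0.19). In 4OHT at day 2, replicate 4 was the highest library for 27 of the 35 members.

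**Figure D2:**
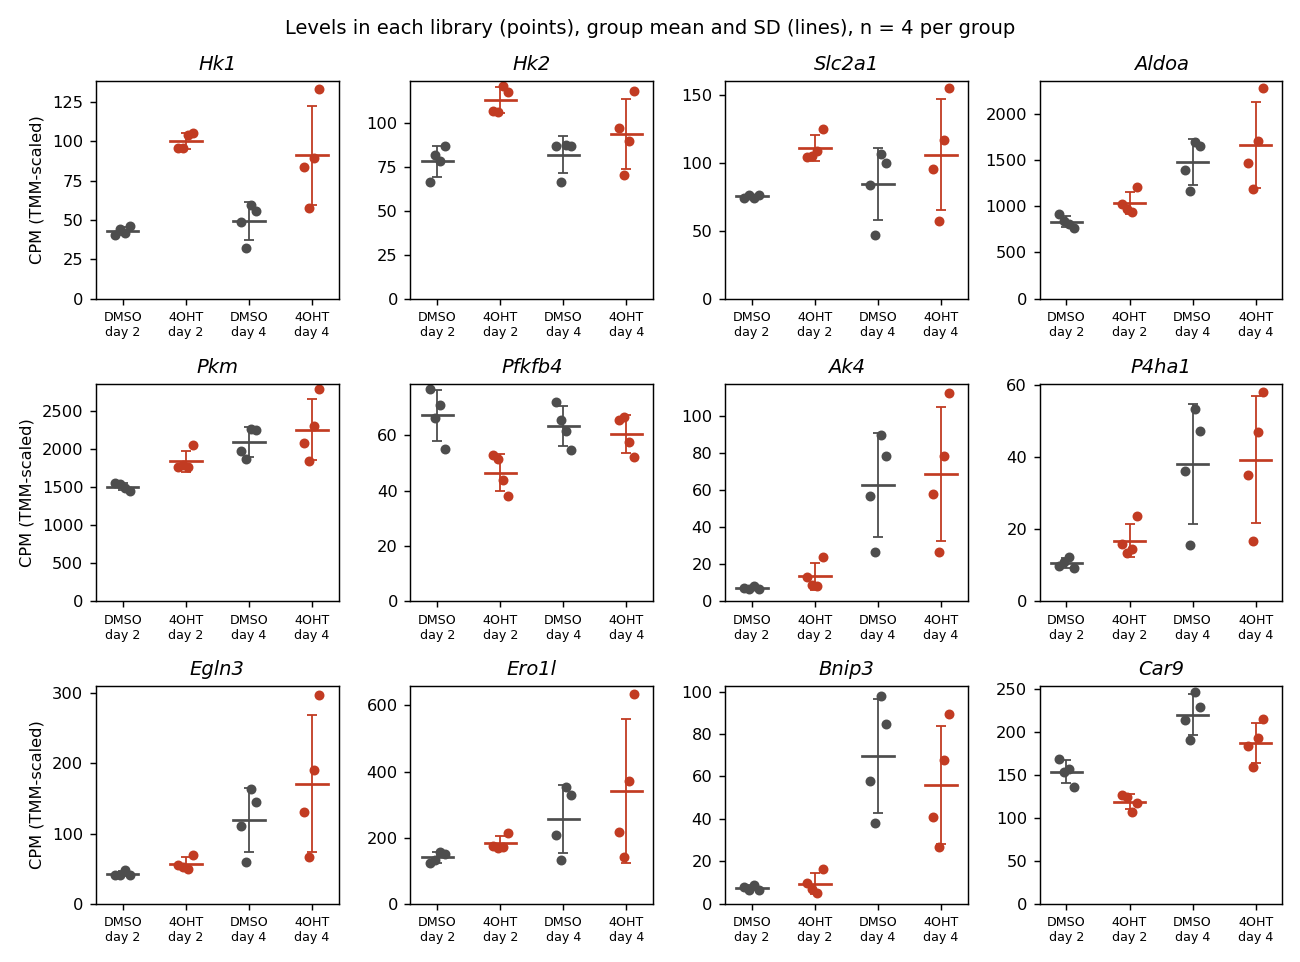
TMM-scaled CPM (vertical axis, from 0) of 12 members in each of the 16 libraries (points), with the group mean and SD (lines), for DMSO (grey) and 4OHT (red) at each day. Hk1, Hk2 and Slc2a1 separate by treatment at day 2, from 40.3 to 46.05 against 95.4 to 105.4 CPM for Hk1. Bnip3 and Ak4 separate by day in both treatments. P4ha1 separates by treatment at day 2 and by day in DMSO, while its days overlap in 4OHT.

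The day 4 comparison addressed later effects, and few members passed the test. Hk1 alone was called among the 35 members (1 higher and 0 lower), where 13.7% of the 16040 genes tested rose and 11.1% fell. The median log2 fold change was 0.03 over the members and -0.01 over all genes. Without adjustment, p was below 0.05 for 2 members, Hk1 and Car9, and DESeq2 also called 1 member higher and 0 lower. For all 35 members the ranges of the 2 groups overlapped, where 28.3% of 16033 genes had groups that did not. Hk1 was at 49.0, 32.4, 59.5 and 55.5 CPM in DMSO replicates 1 to 4 and at 83.8, 57.5, 89.5 and 133.1 CPM in 4OHT (log2 0.89 ± 0.26, edgeR adjusted p = 0.0339). Only the lowest 4OHT library, replicate 2, fell within the range of DMSO. This call ended without DMSO replicates 1, 2 or 4 or 4OHT replicates 1, 3 or 4 (edgeR adjusted p = 0.0578 to 0.0802), and the log2 fold change with replicate 4 of 4OHT left out, the library apart from its group, was 0.65 ± 0.23.

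The members varied far more between libraries of a group at day 4 than other genes did. The median within-group SD of log2 CPM over the members was 0.108 and 0.148 in DMSO and 4OHT at day 2, and 0.325 and 0.365 at day 4. Over 12347 genes with a mean of at least 1 CPM it was 0.096, 0.07, 0.086 and 0.112. At day 4, replicate 2 was the lowest library for 34 members in DMSO and for 33 in 4OHT. The highest library was replicate 3 for 34 members in DMSO and replicate 4 for 34 members in 4OHT. With each gene centred on its mean over the 16 libraries, the members averaged 0.47, 0.01, 0.83 and 0.72 on the log2 scale in DMSO replicates 1 to 4 and 0.41, -0.05, 0.72 and 1.01 in 4OHT. Replicate 2 thus lay between the other day 4 libraries and those of day 2, which averaged -0.67 to -0.18. By role, these day 4 means ran from 0.08 to 1.13 in DMSO and -0.07 to 1.28 in 4OHT for the 17 other hypoxia-induced genes, from 0.06 to 0.90 and -0.07 to 0.90 for the 5 transporters and regulators, and from -0.10 to 0.42 and -0.02 to 0.71 for the 13 enzymes. The share of counts from mitochondrially encoded genes was 3.08%, 3.08%, 2.34% and 1.63% in DMSO and 3.06%, 2.89%, 2.56% and 1.55% in 4OHT in the same order, and its part in these differences was not tested.

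**Figure D3:**
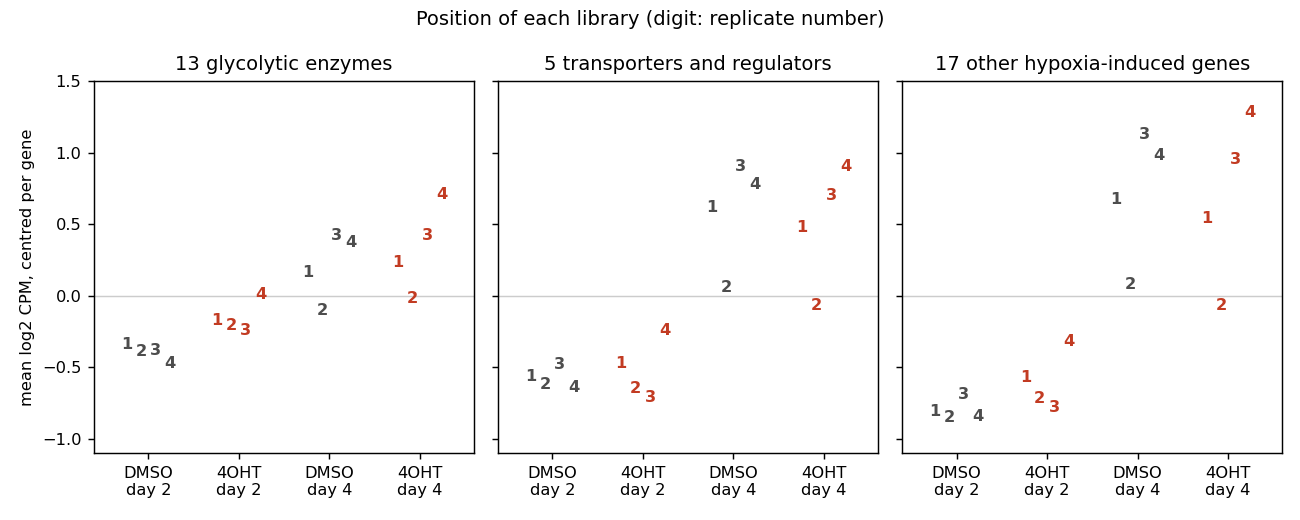
Mean log2 CPM of the members of each role, each gene centred on its mean over the 16 libraries (vertical axis), for every library (digit: replicate number) by group. Replicate 2 is the lowest library of both day 4 groups for every role, and the other hypoxia-induced genes span from -0.85 to 1.28.

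Same-numbered DMSO and 4OHT libraries of day 4 deviated together across genes, and a fit with the replicate number as a block separated that shared variation from the treatment. With the block, 6 members rose and 8 fell, where 22.8% and 22.2% of all genes tested did, so the members' shares were below and near those of all genes. By role, 3 of 13 enzymes rose and 0 fell, 1 of 5 transporters and regulators rose and 2 fell, and 2 of 17 other hypoxia-induced genes rose and 6 fell. The difference between roles was not tested. The rises were Hk1 (log2 0.87, edgeR adjusted p = 0.0041), Slc2a1 (0.31, 0.0323), Pfkp (0.19, 0.0335), Ndrg1 (0.14, 0.0312), Mxi1 (0.14, 0.0238) and Pfkl (0.12, 0.0488). The falls were Egln1, P4ha2, Pfkfb3, Car9, Pdk1, Ddit4, Higd1a and Kdm3a. The pairing comes from the data and not from a batch named in the labels.

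Egln1, Pfkfb3 and P4ha2 are given pair by pair; Egln1 and Pfkfb3 were chosen for this after their values were seen. Within each number, Egln1 was at 88.8 and 66.0, 60.6 and 48.3, 104.6 and 77.9, and 101.2 and 83.9 CPM in DMSO and 4OHT. The 4OHT library was the lower in all 4 pairs, although the groups as a whole overlapped (log2 -0.36 ± 0.03, edgeR adjusted p = 1.56e-05 with the replicate block). Pfkfb3 was at 52.1 and 40.9, 31.8 and 22.3, 62.8 and 45.1, and 56.6 and 48.9 CPM, also lower in all 4 pairs (log2 -0.38 ± 0.05, edgeR adjusted p = 0.000119 with the block). P4ha2 was at 8.996 and 6.25, 3.02 and 2.04, 15.3 and 8.95, and 13.2 and 11 CPM, with 4OHT lower in each pair (log2 -0.53 ± 0.08, edgeR adjusted p = 0.000416 with the block). At day 2 P4ha2 had measured log2 0.79, the opposite sign, and 0.38 without 4OHT day 2 replicate 4 (edgeR adjusted p = 0.0717).

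Car9 was lower in 4OHT in all 4 pairs, by log2 0.22, 0.26, 0.35 and 0.09 (fold change log2 -0.23 ± 0.04, edgeR adjusted p = 0.000837 with the block). Pdk1 was lower by log2 0.25, 0.28, 0.35 and 0.02 (log2 -0.22 ± 0.05, edgeR adjusted p = 0.00496 with the block). Ddit4, an inhibitor of mTOR signalling, measured log2 -0.32, -0.34, -0.30 and 0.07 in the pairs, so replicate 4 went against the others (log2 -0.22, edgeR adjusted p = 0.0488 with the block). Higd1a, a mitochondrial hypoxia-induced protein, and Kdm3a, a histone demethylase, were lower in all 4 pairs (log2 -0.19 and -0.12, edgeR adjusted p = 0.0131 and 0.0179 with the block). Bnip3 showed the pattern of Ddit4, with log2 -0.49, -0.51, -0.54 and 0.07 in the pairs, and did not pass (edgeR adjusted p = 0.0796 with the block).

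Of the 14 calls with the block, 6 (Hk1, Egln1, Pfkfb3, P4ha2, Car9 and Pdk1) were kept when each pair of libraries was left out in turn. The counts of rises and falls were 2 and 6 without the replicate 1 pair, 1 and 6 without the replicate 2 pair, 6 and 5 without the replicate 3 pair, and 8 and 13 without the replicate 4 pair. The shares of all genes called in these fits are not given here, so the counts do not set the members apart from other genes. In replicate 4, the pair with the outlying 4OHT library, the ratio of 4OHT to DMSO was the highest of the pairs for every member except Pfkfb4. That ratio was log2 1.26 for Hk1, 0.63 for Slc2a1, 1.03 for Egln3, 0.94 for Ero1l and 1.16 for Adm. In the other pairs these genes reached at most 0.83, 0.28, 0.23, 0.09 and 0.11.

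**Figure D4:**
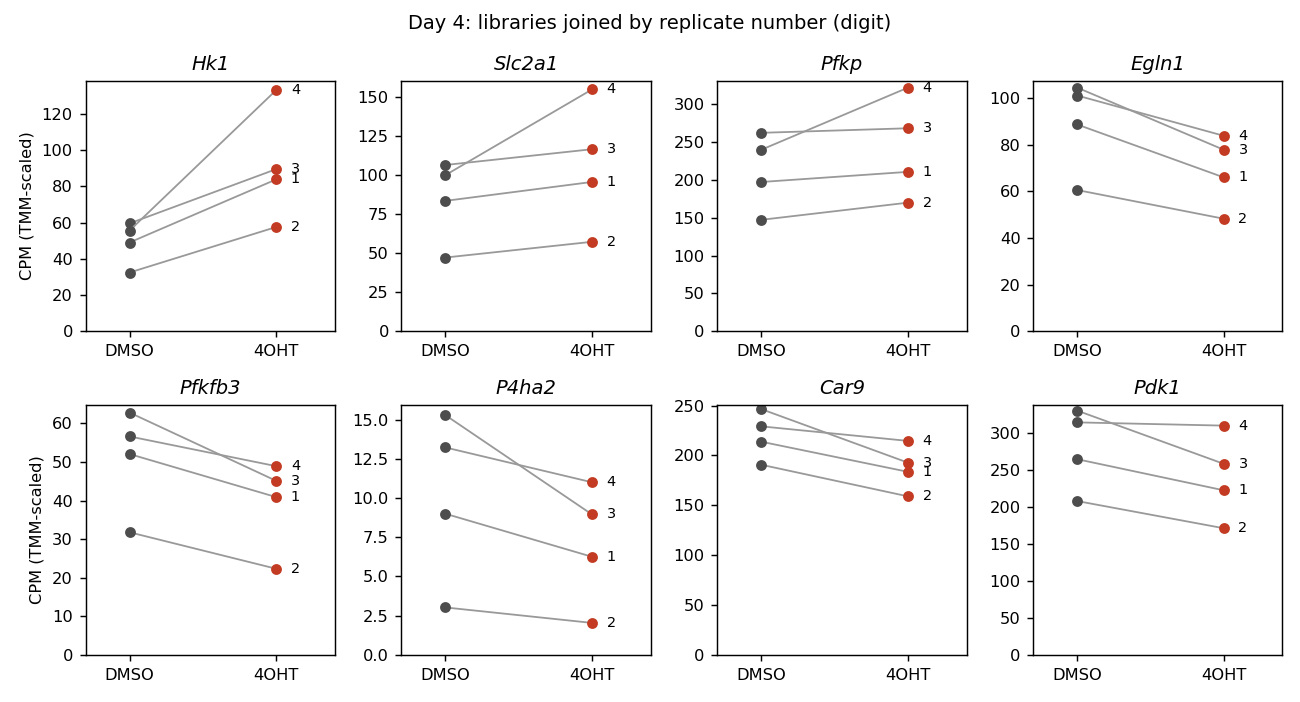
TMM-scaled CPM (vertical axis, from 0) of 8 members at day 4, with DMSO and 4OHT libraries of the same replicate number joined by lines (digit: replicate number). Lines rise in all 4 pairs for Hk1, Slc2a1 and Pfkp and fall in all 4 pairs for Egln1, Pfkfb3, P4ha2, Car9 and Pdk1, while the groups overlap for each gene.

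The comparison of day 4 with day 2 in DMSO described the time course of control organoids. The hypoxia-induced genes and most of the glycolytic enzymes rose with time, several of them by more than log2 2. Of the 35 members, 29 rose and 0 fell, where 28.7% of the 16088 genes tested rose and 24.8% fell, and no member below 0 had an unadjusted p below 0.05. DESeq2 called 30 higher and 0 lower. The median log2 fold change was 0.87 over the members and 0.03 over all genes. The enzymes moved less than the other hypoxia-induced genes: 10 of 13 enzymes rose with a median of 0.68, 3 of 5 transporters and regulators with a median of 1.51, and 16 of 17 other hypoxia-induced genes with a median of 1.23. For 27 members the days did not overlap, where 48.6% of 16088 genes did not. Day is shared with whatever culture or sequencing batch each day was handled in, and these cannot be told apart.

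In 4OHT the same comparison gave 28 rises and 0 falls, where 25.9% of the 15962 genes tested rose and 23.5% fell. No member below 0 had an unadjusted p below 0.05, and DESeq2 called 29 higher and 0 lower. With the replicate block, 29 members rose and 1 fell, where 26.1% and 23.8% of all genes did, and the fall was Hk2 (log2 -0.28, edgeR adjusted p = 0.0348). This block rests on replicate numbers that were not taken to pair libraries across days. The median was 0.80 over the members, with 9 of 13 enzymes (0.67), 4 of 5 transporters and regulators (1.34) and 15 of 17 other hypoxia-induced genes (1.08) called higher. For 21 members the days did not overlap, where 45.9% of 15962 genes did not. In both treatments, 27 members rose.

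Bnip3 changed most in DMSO. It was at 8.10, 6.31, 8.97 and 6.63 CPM at day 2 and at 57.9, 37.9, 98.0 and 84.7 CPM at day 4 (log2 3.23 ± 0.32, edgeR adjusted p = 8.40e-05). In 4OHT it was at 9.65, 7.06, 5.23 and 16.1 CPM and then at 41.1, 26.6, 67.6 and 89.2 CPM (log2 2.55 ± 0.46, edgeR adjusted p = 0.0021). The days did not overlap in either treatment.

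Ak4 rose from the day 2 levels given above to 56.7, 26.5, 89.8 and 78.3 CPM in DMSO at day 4 and to 58.1, 26.5, 78.3 and 112.4 CPM in 4OHT (log2 3.15 ± 0.38 and 2.35 ± 0.50, edgeR adjusted p = 0.000276 and 0.00492). P4ha2, by the values given above, rose by log2 3.14 ± 0.50 in DMSO and 1.85 ± 0.50 in 4OHT (edgeR adjusted p = 0.00104 and 0.0147). Its 4OHT groups overlapped, because replicate 4 at day 2 (3.29 CPM) exceeded replicate 2 at day 4 (2.04 CPM).

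Adm, which encodes the vasodilator peptide adrenomedullin, was at 0.326, 0.369, 0.375 and 0.513 CPM in DMSO and 0.492, 0.671, 0.494 and 0.415 CPM in 4OHT at day 2. At day 4 it was at 2.35, 1.37, 3.91 and 3.36 CPM in DMSO and at 2.39, 1.04, 4.21 and 7.51 CPM in 4OHT (log2 2.78 ± 0.32 and 2.87 ± 0.57, edgeR adjusted p = 2.97e-05 and 0.00313). Every day 4 library exceeded every day 2 library of its treatment, and replicate 2 was the lowest of both day 4 groups.

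Slc16a3, the lactate exporter, was at 23.7, 20.4, 27.6 and 17.6 CPM in DMSO at day 2 and at 112.5, 63.8, 179.5 and 164.8 CPM at day 4 (log2 2.56 ± 0.34, edgeR adjusted p = 0.000451). In 4OHT it was at 27.3, 19.1, 16.5 and 41.3 CPM and then at 98.4, 58.5, 157.3 and 196.9 CPM (log2 2.30 ± 0.43, edgeR adjusted p = 0.00251). Ankrd37, an ankyrin repeat protein gene known mainly as a HIF target, was at 4.48, 4.04, 4.82 and 3.904 CPM in DMSO and then at 21.8, 17.6, 32.3 and 25.9 CPM. In 4OHT it was at 5.39, 3.76, 3.95 and 6.54 CPM and then at 21.6, 15.2, 33.6 and 42.7 CPM (log2 2.51 ± 0.17 and 2.52 ± 0.34, edgeR adjusted p = 5.98e-07 and 0.000404). Neither gene overlapped between days in either treatment.

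The regulators Pfkfb3 (log2 1.93 in DMSO and 1.35 in 4OHT) and Pdk1 (1.51 and 1.34) rose in both treatments. So did the sensors Egln3 (1.5 and 1.59) and Egln1 (1.06 and 0.80), and P4ha1 (1.86 and 1.22), Vegfa (1.38 and 1.24) and Kdm3a (1.23 and 1.08). Car9, which fell with treatment at day 2, rose by 0.53 and 0.67. Among enzymes called higher in both treatments, the largest rise in DMSO was in Pgk1 (1.2 and 0.93). Gpi1 (0.99 and 1.06), Pfkl (0.99 and 0.81) and Eno1 (0.99 and 0.74) followed. The smallest rises in DMSO among these enzymes were in Ldha (0.39 and 0.49) and Pkm (0.49 and 0.30). The edgeR adjusted p of each gene in this paragraph was at most 0.0416.

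Some members were not called by day, among them Hk1, Hk2 and Slc2a1, which were called by treatment at day 2. Hk1 (log2 0.20 ± 0.16 in DMSO and -0.13 ± 0.21 in 4OHT), Hk2 (0.08 ± 0.10 and -0.26 ± 0.13), Slc2a1 (0.18 ± 0.22 and -0.06 ± 0.25), Pfkp (0.03 ± 0.15 and 0.21 ± 0.16) and Higd1a (0.35 ± 0.14 and 0.17 ± 0.16) were called in neither treatment. A p that misses the threshold does not show that these levels were equal, and single libraries decided some of them. Without DMSO day 4 replicate 2, Hk1 and Slc2a1 were higher at day 4 in DMSO (log2 0.34 and 0.36, edgeR adjusted p = 0.00183 and 0.00132), as was Higd1a (0.46, 0.00195). Without 4OHT day 4 replicate 4, Hk1 and Hk2 were lower at day 4 in 4OHT (log2 -0.37 and -0.39, edgeR adjusted p = 0.0444 and 0.00792).

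Pfkfb4 was called higher by day in 4OHT alone, at log2 0.39 ± 0.11 (edgeR adjusted p = 0.0181), against -0.07 ± 0.10 in DMSO. The call ended without 4OHT day 2 replicate 3 (0.0512) or 4OHT day 4 replicate 1 (0.058). Ero1l and Pgam1 were called higher in DMSO alone, and neither DMSO call held once replicate 1 of DMSO day 2 was dropped (edgeR adjusted p = 0.133 and 0.0509). The Ero1l call also ended without DMSO day 2 replicates 2, 3 or 4 or DMSO day 4 replicates 3 or 4. In 4OHT, the Pkm call ended without 4OHT day 2 replicates 1, 2 or 3 or day 4 replicates 1, 3 or 4 (edgeR adjusted p = 0.051 to 0.104), with a log2 fold change of 0.19 in place of 0.30 without day 4 replicate 4, and the P4ha1 call without 4OHT day 2 replicates 2 or 3 or day 4 replicates 3 or 4 (0.0543 to 0.0693). Pgam1 passed in 4OHT without 4OHT day 2 replicate 4 or day 4 replicate 2, and Pfkp and Ero1l without 4OHT day 4 replicate 2 (edgeR adjusted p = 0.0464, 0.00791, 0.0394 and 0.0161). With all libraries, Pgam1 also passed in 4OHT with DESeq2 (adjusted p = 0.0226). It passed as well with scaling by library totals, a filter of 1 CPM in 4 libraries, and the replicate block (edgeR adjusted p = 0.0364, 0.0406 and 0.012). The replicate numbers of that block were not taken to pair libraries across days.

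Whether the treatment difference itself changed between days was tested as an interaction over all 16 libraries. No member passed, where 1.2% of the 16597 genes tested were higher and 0.476% lower. DESeq2 also called 0 of 35 members, and 1 member, Pfkfb4, had an unadjusted p below 0.05 (log2 0.46 ± 0.17, edgeR adjusted p = 0.163). With a block for each replicate number and day, Pfkfb4 was called higher and Hk2, Pfkfb3, Egln1 and P4ha2 lower, where 7.05% and 4.1% of all genes were. P4ha2 showed the largest of these, at log2 -1.25 ± 0.19 (edgeR adjusted p = 0.00141 with the block), after log2 0.79 at day 2 and -0.51 at day 4 without a block. The block at day 2 rests on numbers for which no pairing was detected.

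Of 15 genes of the HIF machinery, 1 rose and 0 fell by treatment at day 2, and 2 rose and 0 fell at day 4 (2 and 2 with the replicate block). Over all genes tested, 16.9% rose and 14.3% fell at day 2, and 13.7% and 11.1% at day 4 (22.8% and 22.2% with the block). Epas1, which encodes the HIF alpha subunit abundant in endothelium and also found in gut epithelium, was at 22.8 ± 1.60 CPM in DMSO and 34.3 ± 1.92 CPM in 4OHT at day 2, and at 21.1 ± 1.57 and 34.3 ± 5.65 CPM at day 4. The groups did not overlap on either day (log2 0.59 ± 0.06 and 0.70 ± 0.11, edgeR adjusted p = 3.56e-05 and 0.00117). Hif1a, the widely expressed alpha subunit, measured log2 0.03 ± 0.07 and 0.12 ± 0.14 and did not pass. Cited2, which competes with HIF for the coactivator Ep300, rose at day 4 (log2 0.25 ± 0.06, edgeR adjusted p = 0.0107). Vhl, Egln2 and the asparagine hydroxylase gene Hif1an were not called on either day. With time, 3 of the 15 genes rose and 8 fell in DMSO, and 3 rose and 5 fell in 4OHT. Over all genes tested, 28.7% rose and 24.8% fell in DMSO, and 25.9% and 23.5% in 4OHT. Hif1a fell while its targets rose, by 0.54 in DMSO and by 0.45 in 4OHT on the log2 scale (edgeR adjusted p = 0.000204 and 0.0209), and Hif3a, an alpha subunit with inhibitory forms, rose (log2 1.43 and 1.16, edgeR adjusted p = 0.000162 and 0.00296). Transcript levels do not measure HIF protein, which is set mainly by its degradation.

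A list of further hypoxia targets outside the 35 gave 9 rises and 1 fall among 19 tested at day 2, and 1 and 1 among 21 at day 4 (3 and 3 with the replicate block). Over all genes tested, 16.9% rose and 14.3% fell at day 2, and 13.7% and 11.1% at day 4 (22.8% and 22.2% with the block). The median log2 fold change of this list at day 2 was 0.23, against 0.00 over all genes tested. Those with the smallest p at day 2 were Insig2, a brake on sterol synthesis (log2 0.36), Gys1, a glycogen synthase (0.35), and Hmox1, a haem oxygenase (0.86), at edgeR adjusted p of 0.000349, 0.000379 and 0.000901. With time, 15 of 21 rose and 1 fell in DMSO, where 28.7% of all genes tested rose and 24.8% fell. In 4OHT, 13 of 20 rose and 0 fell, where 25.9% and 23.5% of all genes did.

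Other isozymes and sugar transporters were set beside the members of the same step. Levels between genes are compared here as RPKM, the TMM-scaled counts divided by the merged exon length of all annotated transcripts of a gene. Expressed transcripts can be shorter, so levels between genes are approximate. At day 2 Pkm was at 301 ± 9.65 and 367.5 ± 27.6 RPKM, and Pklr at 203 ± 24.0 and 172 ± 18.2 RPKM without passing (log2 -0.23 ± 0.09, edgeR adjusted p = 0.0747). Hk1 was at 5.06 ± 0.301 and 11.7 ± 0.628 RPKM and Hk2 at 13.1 ± 1.46 and 18.9 ± 1.25 RPKM. Hkdc1, a further hexokinase gene named after its values were seen, was more abundant than Hk1 and Hk2, at 34.5 ± 2.35 and 32.4 ± 4.10 RPKM.

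Slc2a1 was at 21.5 ± 0.397 and 31.7 ± 2.77 RPKM at day 2. Slc2a2 and Slc2a5, sugar transporters of mature enterocytes that were also chosen after their values were seen, fell from 8.05 ± 1.47 to 4.70 ± 0.702 and from 26.5 ± 5.56 to 15.8 ± 2.93 RPKM (log2 -0.77 and -0.74). Of 16 other isozymes, transporters and regulators, 3 rose and 5 fell at day 2 and 3 rose and 3 fell at day 4 (4 and 3 with the replicate block). Over all genes tested, 16.9% rose and 14.3% fell at day 2, and 13.7% and 11.1% at day 4 (22.8% and 22.2% with the block). These shares apply to every list in this paragraph, and no list was tested against them. Ldhd, a lactate dehydrogenase of D-lactate, rose on both days (log2 0.59 and 0.87), and Slc16a1, a monocarboxylate transporter gene, fell on both (log2 -0.27 and -0.36). Of 8 genes of gluconeogenesis, 1 rose and 5 fell at day 2 and 1 rose and 3 fell at day 4 (2 and 4 with the replicate block). Fbp1, which opposes phosphofructokinase, fell on both days (log2 -1.61 ± 0.20 and -0.63 ± 0.11, edgeR adjusted p = 8.67e-05 and 0.0021), while Pcx, which makes oxaloacetate from pyruvate, rose (log2 0.36 and 0.60). Pck1 measured log2 0.08 ± 0.14 and 0.69 ± 0.35 and did not pass. Of genes for pyruvate entry to mitochondria, 1 of 11 rose and 4 fell at day 2, and 1 of 12 rose and 0 fell at day 4 (1 and 5 with the replicate block). Of 10 enterocyte markers, 7 fell and 0 rose at day 2, and 0 fell and 2 rose at day 4 (0 and 3 with the replicate block), and their part in these results was not tested.

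**Figure D5:**
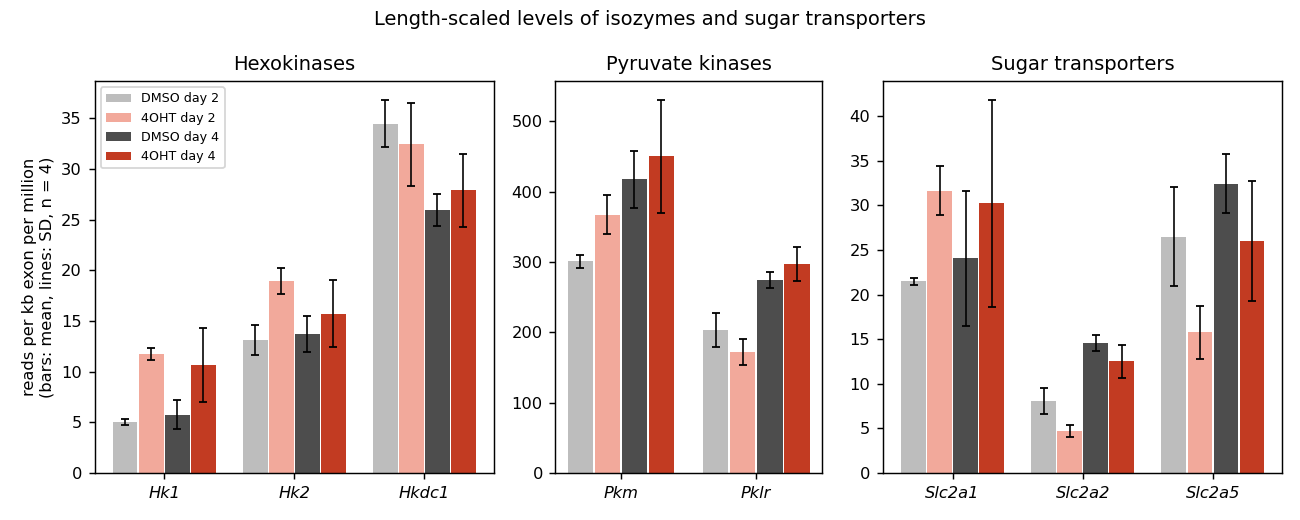
RPKM, counts scaled by exon length (vertical axes, from 0; bars: mean, lines: SD, n = 4) of hexokinases, pyruvate kinases and sugar transporters in the 4 groups. At day 2 Hk1, Hk2, Pkm and Slc2a1 are higher in 4OHT, and Slc2a2 and Slc2a5 lower.

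The order of the members by length-scaled level was led in DMSO at day 2 by Ldha (457.4 ± 39.6 RPKM), Gapdh (318.7 ± 30.1), Pkm (301 ± 9.65) and Aldoa (286 ± 21), and closed by Ak4 (1.53 ± 0.205), Adm (0.244 ± 0.0503) and P4ha2 (0.184 ± 0.023). Gapdh and Pkm, and Pkm and Aldoa, differed by less than the larger SD of each pair, so their order is not resolved. The lengths merge the exons of all annotated transcripts, 3310 bases for Ldha and 4133 for Gapdh. The order therefore also depends on which transcripts were expressed, which was not measured. Ak4, Adm and P4ha2, which closed this order, were also among the members with the largest rises by day 4 in DMSO. At day 4 in DMSO, Ak4 was at 13.5 ± 6.00, Adm at 1.70 ± 0.692 and P4ha2 at 1.62 ± 0.867 RPKM. Bnip3, which rose most, was not among those that closed the order. Ndrg1, a stress-induced gene of differentiated epithelium, was the most abundant of the 17 other hypoxia-induced genes, at 110.7 ± 12.1 and 193.1 ± 29.9 RPKM in DMSO at day 2 and day 4. Exons of 13 members overlap an annotated gene on the opposite strand. For 7 members, genes or pseudogenes with related names were counted as copies. The largest single copy by share, Pgam1-ps2, held 0.814% of the counts of its member at day 4. How similar these copies are in sequence was not tested, and copies under unrelated names are not covered.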

How the data were processed

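Poly(A) RNA of 16 libraries from mouse jejunal organoids was sequenced, 4 libraries in each of 4 groups. The deposited tables, one per day, hold raw read counts per gene, and the authors aligned reads to GRCm38 with STAR 2.4.0f1, per the submitters' processing notes. For the counting tool, strand setting and annotation, nothing is stated: not given in the sources used here. A further 16 columns of normalized values in the tables were not used. Both tables list only genes whose counts sum to at least 10, and 14 gene symbols of the day 4 table that had been turned into dates were replaced by matching gene IDs. Library totals were 63.8 to 93.3 M counts.

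The members and gene lists were chosen with earlier results of these data known. Counts were tested with edgeR 4.0.16 (R 4.3.3): TMM scaling, filterByExpr, a robust quasi-likelihood fit over the 8 libraries of a comparison (all 16 for the interaction) and Benjamini-Hochberg adjustment over all genes tested, with a threshold of 0.05. All 35 members passed the filter in every comparison. CPM values are TMM-scaled, and RPKM values divide them by the merged exon length of all transcripts of a gene in GENCODE M21. The edgeR fits without a block were run on simulated data before use, for both treatment comparisons, day in DMSO and the interaction. The simulated libraries shared no variation by replicate number, and the outcome is not given here. The replicate block, DESeq2 and day in 4OHT were not simulated. Alternatives were DESeq2 1.42.0, other scalings, other filters, a stricter threshold, a replicate block, a fit over all 16 libraries and leaving out each library. No library pair of a group agreed within sampling noise (lowest chi-square per degree of freedom 7.38 over 24 pairs).

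Groups share replicate numbers in the labels, which do not say that a number marks a shared batch. At day 4, deviations from the group means of same-numbered DMSO and 4OHT libraries correlated at 0.63 to 0.81 across genes with a mean log2 CPM of at least 3, and 8 of 8 libraries correlated best with their own number. The numbers were therefore taken to pair the day 4 libraries. In the other comparisons they were not (-0.11 to 0.47 for treatment at day 2, 0.07 to 0.19 and -0.23 to 0.39 for day in DMSO and 4OHT).

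Members given library by library were, per treatment comparison, up to 10 called members with the largest absolute log2 fold change, and up to 5 per time comparison or interaction. Of the other lists, fixed genes and those with the smallest p or highest level were named. Some genes that this rule names are not reported here. Promoter and motif sequences come from RefSeq tables of build GRCm38.p6.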

Additional observations from a re-analysis of the deposited data

Results flagged for a closer look

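In 7 of 140 sets of 4 libraries (35 members in 4 groups), the highest or lowest library stood apart from the other 3 by Dixon's 95% critical value, and chance gives about 1 in 20. Of these, 3 sets belonged to 4OHT day 2 replicate 4, with Pkm at 2040 CPM, Ero1l at 215 CPM and Pfkfb3 at 19.6 CPM, each the highest of its group. A further 3 belonged to DMSO day 2 replicate 3, with Mxi1 at 61.4 CPM, Vegfa at 53.8 CPM and Egln3 at 47.6 CPM, also the highest. The last was Hk2 in DMSO day 4 replicate 2, the lowest of its group at 66.2 CPM.

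With the replicate block, the difference between 4OHT and DMSO itself differed between day 4 and day 2 for 5 members (edgeR, interaction term). Over all genes tested with this block, 7.05% were higher and 4.1% lower. At day 2 the block rests on replicate numbers for which no pairing was detected. The change in log2 fold change was -1.25 for P4ha2, -0.59 for Pfkfb3, -0.35 for Hk2, -0.26 for Egln1 and 0.46 for Pfkfb4. None of the 5 passed without the block.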

How the results depend on the processing

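No member that passed the test, under the settings reported or under an alternative, changed direction between them. Members that passed in neither changed sign 98 times, in up to 13 members of a comparison (day 4 by treatment). Without 4OHT day 4 replicate 4, 10 members of that comparison did, among them Adm (log2 0.48 to -0.09), Ero1l (0.42 to -0.07), Ankrd37 (0.22 to -0.05) and Ak4 (0.14 to -0.20). At day 2, the 14 members called higher became 7 at an adjusted p below 0.01, 9 with no filter on low counts and 3 in the fit over all 16 libraries, and 8 to 15 with 1 library left out. The 2 called lower ranged from 2 to 3. The replicate block gave 12 and 2 at day 2. At day 4, the 1 member called higher became 0 at the stricter threshold, 0 with no filter and 6 with the replicate block, and 0 to 1 with 1 library left out. The 0 called lower became 8 with the replicate block and 0 to 1 with 1 library left out. With the block and 1 pair left out, which was added after seeing the data, the counts were 1 to 8 higher and 5 to 13 lower. The shares of all genes called in those fits are not given here. By day, 29 rises in DMSO ranged from 27 to 32 and 28 in 4OHT from 25 to 31 with 1 library left out. Falls stayed at 0 in DMSO, and in 4OHT were 0 to 2, with 1 under the replicate block (Hk2). The interaction gave 0 and 0 calls, and 1 higher and 4 lower with the replicate block.

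The median within-group SD of log2 CPM over the members was 0.108 and 0.148 at day 2 and 0.325 and 0.365 at day 4, so a difference of a given size was harder to call at day 4 without the block.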
